A study of Caenorhabditis elegans with 2 samples.

Results

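The 7 genes described here, dbl-1, sma-6, daf-4, sma-2, sma-3, sma-4 and sma-9, encode core components of the Sma/Mab pathway, the BMP branch of TGF-β signalling in *Caenorhabditis elegans*. They were chosen by name from the 19973 protein-coding genes on the 6 chromosomes of the WBcel235 annotation. For each gene, all TRA-1 peaks whose summit lay inside the gene or within 10 kb of either end were collected. TRA-1 is the worm's GLI-type zinc-finger protein, the most downstream regulator of somatic sexual fate.

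Binding of TRA-1 was measured by ChIP-seq (sequencing of DNA precipitated with the protein) in 1 group of 2 biological replicates, with no second genotype, stage or treatment. Both replicates were whole L4 larvae of strain DZ840, aged 48 h and synchronised by starving hatched L1 larvae after bleaching. In this strain the tra-1 allele ez72, an insertion made by CRISPR at the tra-1 locus on chromosome III, joins a biotag, GFP, a TEV site and 3xflag to TRA-1, and chromatin was sonicated and precipitated with an antibody against GFP. The sex of the animals was not collected. Chromatin came from whole animals, so few cells with strong binding and many cells with weak binding cannot be told apart.

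In the Sma/Mab pathway, the secreted ligand DBL-1 acts through a type I receptor, SMA-6, and a type II receptor, DAF-4. The receptors signal to the Smad proteins SMA-2, SMA-3 and SMA-4, and SMA-9, a zinc-finger protein related to Drosophila Schnurri, acts with the Smads in the nucleus. Loss of the pathway gives small animals and, in males, fused or misshapen sensory rays of the tail.

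Of the 7 genes, 5 had a TRA-1 site within 10 kb in the conservative thresholded list, the shorter of 2 lists the authors made from both replicates. The sites numbered 15, in 13 separate regions: 7 at sma-9, 3 at sma-6, 2 each at daf-4 and sma-2, and 1 at sma-4. No site lay within 10 kb of dbl-1 or sma-3. Of all protein-coding genes, 37.7% had a site within 10 kb. Of the 7 genes, sma-2 and sma-9 had a site between 2 kb upstream of the start and the gene's end, as did 11.2% of all protein-coding genes. With so few genes, neither count was tested and neither sets the pathway apart from other genes.

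The DNA under 5 of these summits is given first, since it shows what kinds of sequence lie beneath the sites that the description turns on. Each run covers 101 bases centred on the summit, on the plus strand of ce11 (WBcel235), read from the RefSeq copy of that genome. Capitals mark a match of the word CTCTCTC on either strand or, where at most 2 mismatches were needed, the stretch closest to the TRA-1 core TGGGTGGTC on either strand.

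sma-4, strongest of the 15 sites, between genes, chrIII:5813673-5813773: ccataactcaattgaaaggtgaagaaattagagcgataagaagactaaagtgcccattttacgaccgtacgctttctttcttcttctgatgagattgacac

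sma-9, strongest site inside a pathway gene, intron, chrX:10771127-10771227: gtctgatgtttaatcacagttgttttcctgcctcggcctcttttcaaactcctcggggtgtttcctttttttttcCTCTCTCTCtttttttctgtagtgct

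sma-9, just upstream of an internal transcript start, chrX:10772939-10773039: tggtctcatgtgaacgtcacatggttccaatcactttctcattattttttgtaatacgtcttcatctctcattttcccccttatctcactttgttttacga

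sma-6, past its end, beside the microRNA gene cel-mir-60, chrII:6328845-6328945: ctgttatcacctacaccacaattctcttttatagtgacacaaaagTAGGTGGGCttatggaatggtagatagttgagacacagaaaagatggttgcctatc

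daf-4, past its end, in an intron of ckk-1, chrIII:5637385-5637485: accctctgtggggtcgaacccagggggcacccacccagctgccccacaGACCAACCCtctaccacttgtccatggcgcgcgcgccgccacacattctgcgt

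None of the 15 windows held TGGGTGGTC with at most 1 mismatch on either strand. Across the whole list, 58 of 2703 windows did (2.15%), so that few matches would be found in any 15 sites. With at most 2 mismatches, 4 of the 15 windows had a match, both at daf-4 and 2 of the 3 at sma-6, as did 19.2% of all windows. At 3 of these 4 sites the closest stretch was centred within 3 bp of the summit. The share of all windows with such a placement is not given. In the sma-4 window no stretch had fewer than 4 mismatches, and more than 1 stretch had that many. The place of a closest stretch is therefore not defined there. The word CTCTCTC lay in 2 of the 15 windows, both in sma-9 introns, and in 8.44% of all windows. The GATA-type word TGATAAG lay in none of the 15 windows and in 9.29% of all. Anywhere in the peak, it lay in 1 of the 15, a sma-6 site, and in 19.8% of all 2703. G and C made up between 30.7% and 67.3% of the bases in the 15 windows, with a median of 43.6% against 45.5% over all sites. A match in these windows is a description of letters and does not show that TRA-1 contacts them.

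The signal of a peak, used below, is the height value that the authors' files give, on a scale that holds within 1 list. In the conservative list of 2703 sites it had a median of 105.3 and reached 894.7. The score, a whole number up to 1000, is higher for a lower irreproducible discovery rate (IDR). The IDR is the estimated rate of peaks that do not recur between the peak sets compared. The lowest score admitted was 830, an IDR of about 0.01. The authors also deposited a ranked list of 78883 peaks, most of them below that score. For each replicate there was a separate pair of lists, and replicate signals below come from those. A score in a replicate's own lists does not compare the 2 replicates, so a low one is not a disagreement between them.

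The ligand gene dbl-1 (WBGene00000936, chromosome V, 6758135 to 6760418, plus strand) had the weakest peaks of the 7 genes. Its strongest ranked peak had a signal of 48.1 and a score of 382, with the summit at 6753469, 4666 bp upstream of the start. In the replicates' own ranked lists the overlapping peaks had signals of 25.7 in replicate 1 and 28.2 in replicate 2. Both were below the median signals of the replicates' thresholded lists, 74.6 and 65.6, and above those of their ranked lists, 21.6 and 17.7. A peak 3895 bp upstream had a signal of 44.9 and a score of 457, and 1 at 1102 bp upstream had 39.9 and 126. No peak within 10 kb of dbl-1 was in any of the 4 thresholded lists. The nearest conservative site lay 51164 bp upstream, with a signal of 84.5, nearest to the start of W02F12.4.

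The type I receptor gene sma-6 (WBGene00004860, chromosome II, 6324484 to 6327355, plus strand) had 3 conservative sites, all past its end, in the DNA between it and its downstream neighbours or beyond set-4. The first had its summit at 6327503, 148 bp past the end of sma-6 and in no protein-coding gene. Its signal from both replicates together was 144.9. It was 84.3 in replicate 1 and 62.6 in replicate 2. The second, at 6328895, lay 1540 bp past the end and 96 bp from cel-mir-60, a microRNA gene on the minus strand, and had a signal of 149.7, with 65.4 in replicate 1 and 74.3 in replicate 2. The last, at 6331638, lay 4283 bp past the end and 297 bp upstream of the start of set-4, which encodes a histone H4 lysine methyltransferase. Its signal was 172.4, with 93.2 in replicate 1 and 77.8 in replicate 2. All 3 sites had a score of 1000 and were in both replicates' own thresholded lists. The start of sma-6 was the nearest protein-coding start for the first site alone, at a distance of 3019 bp.

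The type II receptor gene daf-4 (WBGene00000900, chromosome III, 5625135 to 5632323, plus strand) also serves the dauer branch of TGF-β signalling. Both of its conservative sites lay past its end and in introns of the next gene, ckk-1, which encodes a kinase that activates calmodulin-dependent kinases. The stronger, at 5637435, lay 5112 bp past the end of daf-4 and 1956 bp into ckk-1, with a signal of 103.1 and a score of 1000. The replicates differed here. Replicate 1 had a signal of 42.7 with a score of 59, and replicate 2 had 66.8 with a score of 1000, so only replicate 2 had it in its own list. The weaker, at 5636074, lay 3751 bp past the end of daf-4 and 595 bp into ckk-1, with a signal of 93.3 and a score of 951. It had a signal of 42.8 in replicate 1 and 38.5 in replicate 2 and was in neither replicate's own list. Another peak, 3706 bp upstream of daf-4 at 5621429, missed the lowest admitted score with 823 and had a signal of 64.0. In the conservative ranked list it was the nearest miss at any member, and the member site closest above the limit was a sma-9 site with a score of 876. In the second ranked list the daf-4 peak had a score of 653, and in the replicates' own ranked lists 362 and 159.

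The Smad gene sma-2 (WBGene00004856, chromosome III, 8749680 to 8757089, plus strand) encodes a receptor-regulated Smad and had the site closest to a start. The summit at 8749691 lay 11 bp inside the annotated start, in the 5' UTR, with a signal of 117.7 and a score of 1000. It had a signal of 73.4 in replicate 1 and 49.9 in replicate 2 and was in both replicates' own lists. The start of sma-2 lies within ugtp-1, a gene on the minus strand, so the site lies inside both genes. The other sma-2 site, at 8741663, lay 8017 bp upstream and 251 bp upstream of pdhk-2, which encodes a pyruvate dehydrogenase kinase. Its signal was 107.3, with 58.5 in replicate 1 and 35.0 in replicate 2, and it was in the list of replicate 1 alone.

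The other receptor-regulated Smad gene, sma-3 (WBGene00004857, chromosome III, 6860974 to 6863968, minus strand), had no conservative site. Its strongest ranked peak, at 6857675, lay 3299 bp past the end of sma-3 and 866 bp upstream of zak-1, a kinase gene. Its signal was 72.5 with a score of 635, and 52.7 in replicate 1 against 27.0 in replicate 2. In the second thresholded list of both replicates the same peak had a score of 927 and was admitted. A peak at the start of sma-3 itself, 69 bp upstream at 6864037, had a signal of 62.1 and a score of 527, with 35.4 in replicate 1 and 26.3 in replicate 2, and was in no thresholded list. The nearest conservative site lay 10574 bp past the end of sma-3, nearest to the chemoreceptor gene srv-1, with a signal of 132.0, just outside the 10 kb window.

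The common Smad gene sma-4 (WBGene00004858, chromosome III, 5816232 to 5820204, plus strand) had the strongest of the 15 sites. Its summit at 5813723 lay 2509 bp upstream of sma-4, in no protein-coding gene. The signal was 251.7 and the score 1000, which placed it at rank 126 of the conservative list. Separately, it was 138.7 in replicate 1 and 109.2 in replicate 2, the highest member value in each, and the site was in both replicates' own lists. The summits of the replicates lay at 5813706 and 5813711. The peak ran from 5813649 to 5813777 and was narrower than the list's median width of 304 bp. The nearest protein-coding start was that of R12B2.7, 1322 bp away, with sma-4 beyond it. By signal, the sites ranked just above had ubc-6 (254.4), pkg-2 (254.2) and srd-43 (252.9) as the nearest protein-coding start. Those just below had the yolk protein gene vit-3 (250.3), the ribosomal protein gene rpl-7A (249.5) and F19H6.5 (249.1). The summit of the site near srd-43 lay inside a tRNA gene. The second thresholded list added a site at 5828241, 8037 bp past the end of sma-4 in an intron of R12B2.8, with a signal of 69.8 and a score of 835.

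The cofactor gene sma-9 (WBGene00004862, chromosome X, 10769282 to 10782973, plus strand) had the most sites and is the longest of the 7 genes, with 6 annotated transcript starts. Its strongest site, at 10771177, lay in an intron 1895 bp from the first start, with a signal of 201.5. The replicates gave 112.4 and 75.1, and both had it in their own lists. A site 2998 bp upstream of the gene, at 10766284 and outside protein-coding genes, had a signal of 163.9, with 97.6 in replicate 1 and 69.3 in replicate 2, and was also in both lists. These are the strong sites of sma-9, at ranks 254 and 479 of the list.

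A second pair of sma-9 sites lay near an internal transcript start. The site at 10772315 lay in an intron 766 bp upstream of that start, with a signal of 143.8, and 71.9 in replicate 1 against 64.5 in replicate 2. It was in the list of replicate 1 alone, since its score was 936 in that replicate and 444 in the other. The site at 10772989 lay 92 bp upstream of an internal start, with a signal of 94.7 and a score of 876. Its signal was 62.2 in replicate 1 and 31.3 in replicate 2, and it was in neither replicate's own list. Peak lists do not show which sma-9 transcripts were made in these animals.

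The other 3 sma-9 sites were weak. That at 10771383, with a signal of 24.7, overlapped the peak of the strongest sma-9 site, and replicate 1 had no peak of its own there. Those at 10790213 (44.3) and 10790414 (24.3) overlapped each other in vap-2, a gene past the end of sma-9, and were in neither replicate's own list. All 3 had a score of 1000 in the conservative ranked list but 67, 416 and 35 in the second ranked list, so that the second thresholded list held 4 sma-9 sites in place of 7.

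**Figure D1:**
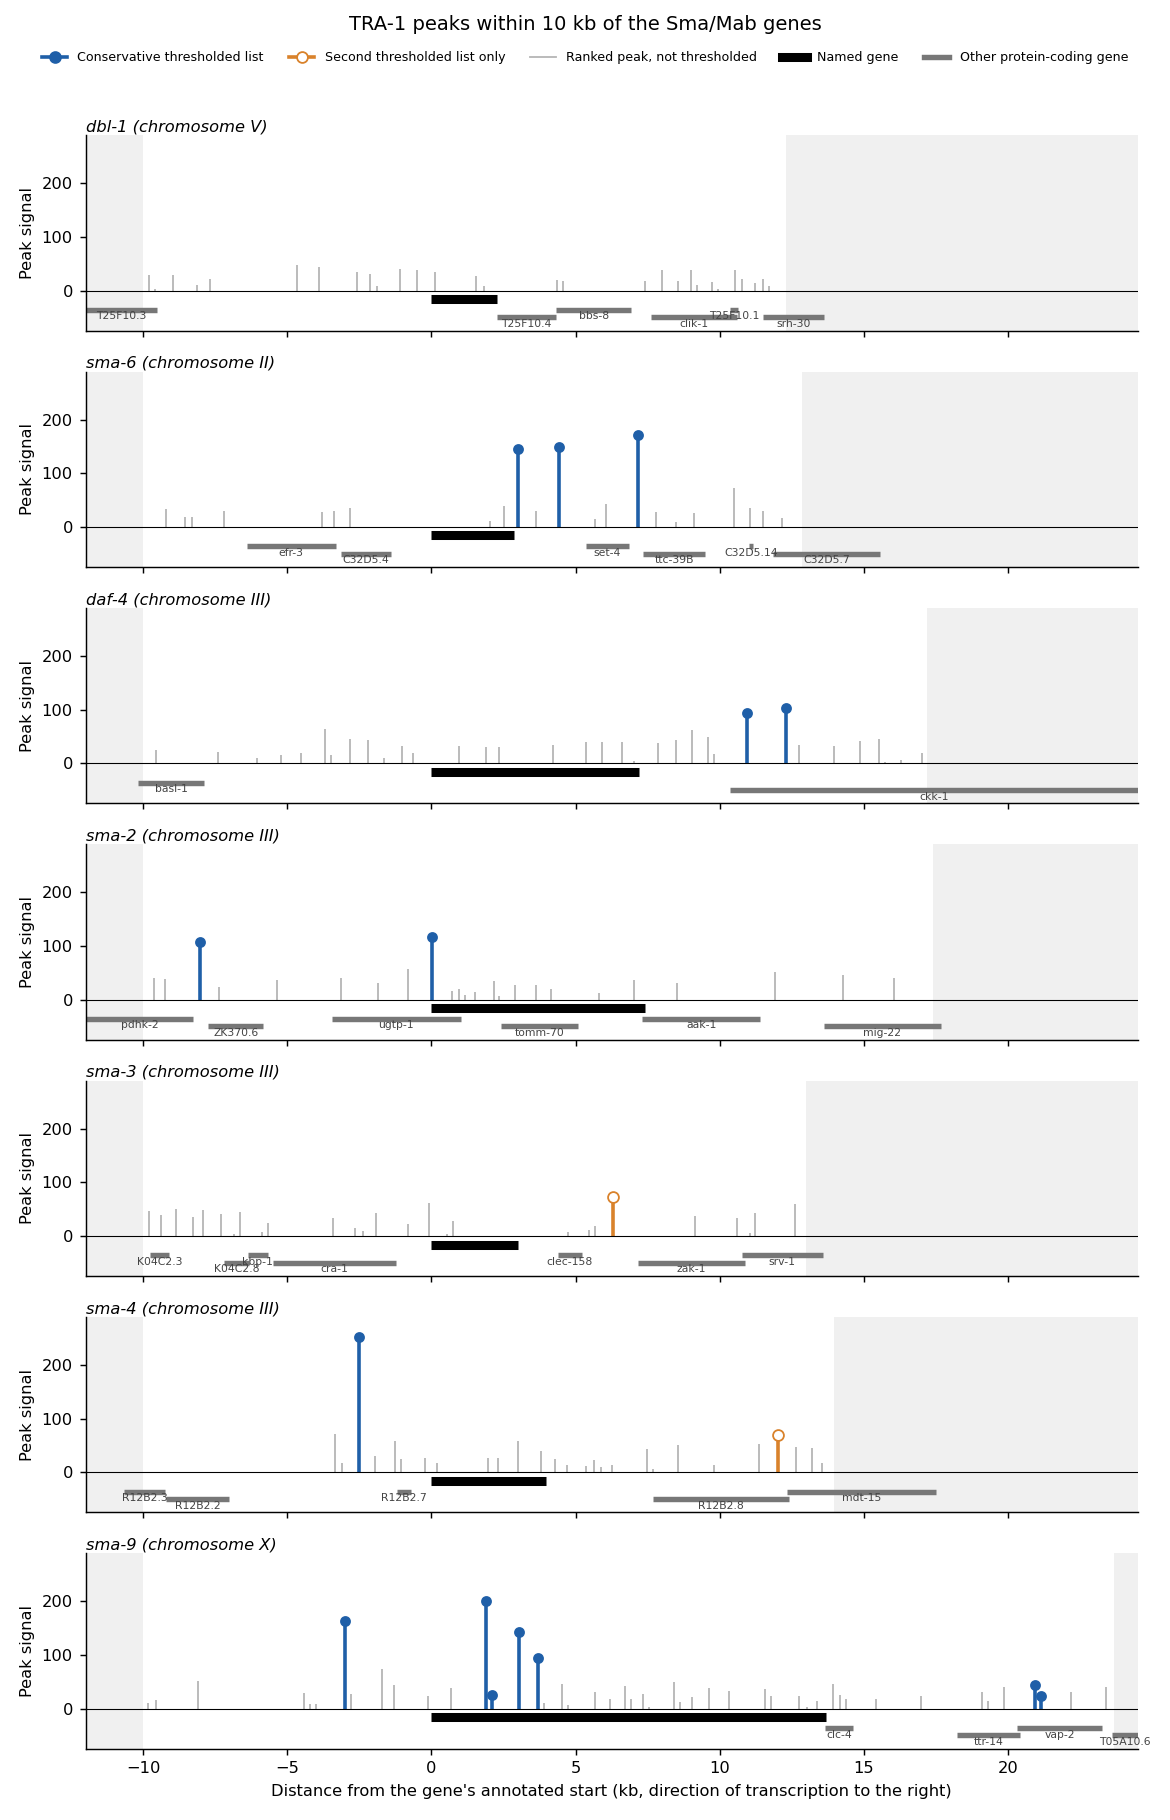
Signal of every ranked peak (vertical lines, both replicates together) against distance in kb from the start of each of the 7 genes. Blue points are conservative sites, open orange points are sites of the second thresholded list alone, grey lines are ranked peaks in neither, black bars are the named genes, dark grey bars their neighbours, and light grey areas lie outside the 10 kb window. Of the conservative sites, those of sma-6 and daf-4 lie past the gene's end and those of sma-4 and sma-2 at or before the start. Those of sma-9 lie mostly near its start.

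Placed together, the 15 sites were 3 upstream of a member, 5 inside one and 7 past an end. They lay outside protein-coding genes in 6 cases and in introns in 7. The 15 sites make up 13 separate regions, and overlapping sites are counted separately here. Shares of all conservative sites by placement are not given, so these counts do not set the member sites apart. The member had the nearest protein-coding start for 7 of the 15 sites, and the rest lay closer to the start of a neighbour. Signals ran from 24.3 to 251.7, with a median of 117.7 against 105.3 for the whole list, and 9 of the 15 were above that list median.

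**Figure D2:**
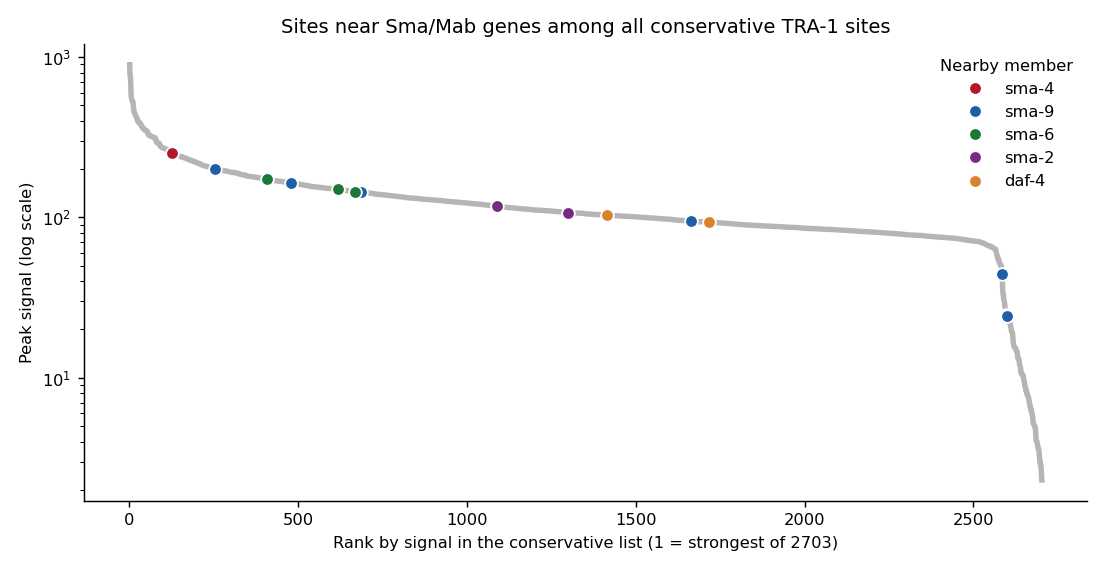
Signal (log scale) of all conservative sites in order of rank, with the 15 member sites as coloured points. The sma-4 site is at rank 126, the sma-2 and daf-4 sites lie around the middle, and the 3 weak sma-9 sites lie in the steep tail from rank 2584 to 2599, where a pair of them is drawn as 1 point.

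The replicates did not support all sites equally. Of the 15 sites, 7 were in both replicates' own thresholded lists, 2 in that of replicate 1 alone, 2 in that of replicate 2 alone and 4 in neither. One of the 2 in replicate 2 alone was the weak sma-9 site that shares its replicate 2 peak with its strong neighbour. By separate region, 7 of 13 were in both lists, 2 in replicate 1 alone, 1 in replicate 2 alone and 3 in neither. The replicates' own lists are shorter than the conservative list, with 1682 and 1355 peaks against 2703. The same shares over all conservative sites are not given, so these counts do not set the member sites apart. Replicate 1 had no peak at the sma-9 sites 10771383 and 10790414. Elsewhere the peak in replicate 1 had the higher signal at 11 sites, but the signals of the 2 replicates are not on a common scale. The median signals of their thresholded lists were 74.6 and 65.6. Relative to the length of its own ranked list, 39752 peaks against 59593, replicate 1 ranked better than replicate 2 at 4 sites. The list of replicate 1 had sites within 10 kb of 4 members, sma-6, sma-2, sma-4 and sma-9, against 26.8% of all protein-coding genes. That of replicate 2 had sites at the same 4 and at daf-4, against 23.1% of all.

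**Figure D3:**
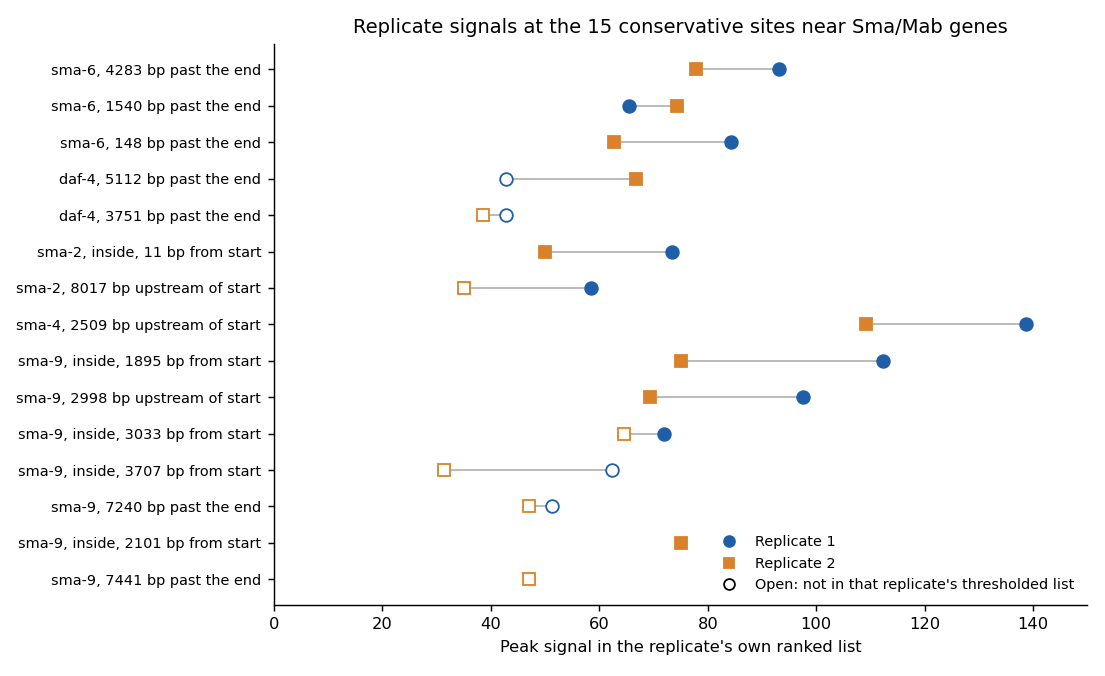
Peak signal in replicate 1 (circles) and replicate 2 (squares) at each of the 15 conservative sites, with open symbols where the peak was not in that replicate's own thresholded list. The sma-4 site is highest in both replicates (138.7 and 109.2). Replicate 1 has no peak at the lower pair of weak sma-9 sites, and the replicate 2 symbols there stand for the peak of the overlapping neighbour.

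In the second thresholded list, 6 of the 7 genes had a site within 10 kb, against 41.9% of all protein-coding genes. It held 14 member sites, 12 of them also conservative sites, and added sma-3. In both lists dbl-1 had none, and sma-2 and sma-9 were the 2 members with a site from 2 kb upstream to the end.

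The strongest ranked peak within 10 kb placed the 7 genes among the 19355 protein-coding genes that had any ranked peak in that range, whose median was a signal of 67.2. The percentile was 96.6 for sma-4, 93.5 for sma-9, 90.4 for sma-6, 78.7 for sma-2, 73.9 for daf-4, 55.4 for sma-3 and 18.1 for dbl-1. The ligand gene thus stood below most genes, with a strongest signal of 48.1, although it had 29 ranked peaks in range against a median of 19 over genes. The long gene sma-9 had 47 ranked peaks in range, the most of the 7, and a longer window has more chances to include a strong peak.

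**Figure D4:**
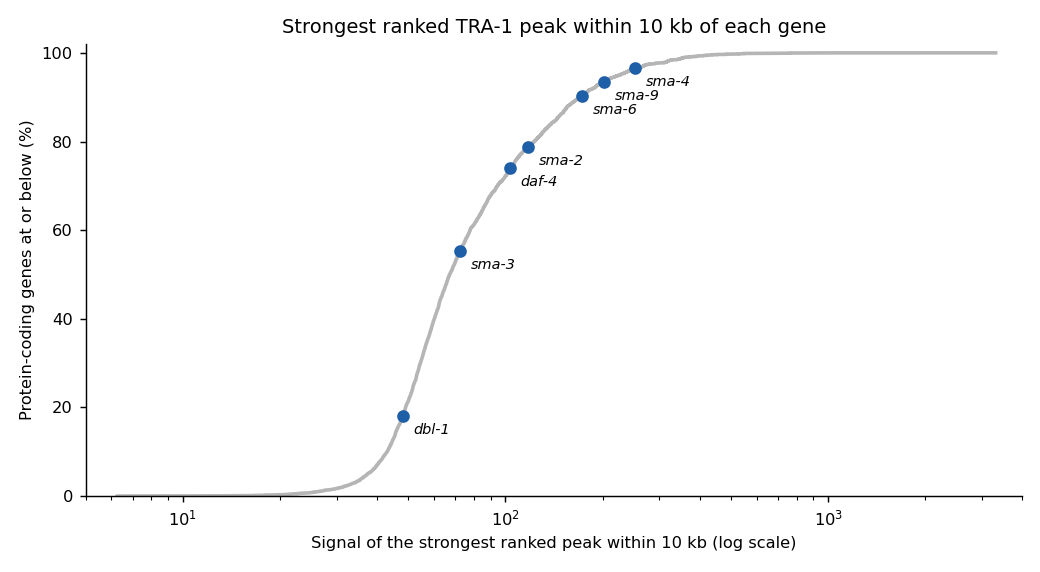
Percentage of protein-coding genes whose strongest ranked peak within 10 kb has at most the signal shown (log scale), as a grey curve over 19355 genes, with the 7 members as blue points. The members run from dbl-1 at 48.1 to sma-4 at 251.7.

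Other genes of the same pathway were examined from 2 further lists. Of 10 modulators of DBL-1 signalling, 4 had a conservative site within 10 kb, and of 9 genes that act downstream, 3 did, together 7 of 19 against the 37.7% of all protein-coding genes. From 2 kb upstream to the gene's end there were 2 of 19, against 11.2% of all. They were crm-1, which encodes a cysteine-rich secreted protein that promotes DBL-1 signalling, and kin-29, a protein kinase gene with a role in body size. The crm-1 site lay 1947 bp upstream, with a signal of 105.8, and 66.6 in replicate 1 against 42.2 in replicate 2. The kin-29 site lay 279 bp upstream, with a signal of 92.5, and 54.7 in replicate 1 against 45.1 in replicate 2. Both were in the list of replicate 1 alone. Both shares lie near those of all genes.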

How the data were processed

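The deposited peak lists are on the ce11 build, per the labels. No aligner or peak caller is named (not given in the sources used here). Depth is unknown because read counts are not part of the lists, and control samples were not analysed here. Signal and score are the authors' deposited values for each peak, used for description and ranking inside each list only. The deposited −log10 values of the IDR were converted to an IDR and entered no test. Every conservative site was found in the ranked list of 78883 peaks, 2778 of which reached the lowest admitted score. In the ranked lists of both replicates, the columns of replicate values do not name the replicates, so replicate values are those of the strongest overlapping peak in each replicate's own ranked list.

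Summits were compared, in 1-based coordinates, with Ensembl release 115 of WBcel235. Sequence came from RefSeq's WBcel235 genome, and all peaks lay within its chromosomes. Of the 15 site sequences, 5 are printed and the others are not reported here. The counting and word search were tested on simulated data. No test was made, as there is 1 group and 2 replicates. The members, gene lists and words were chosen with earlier results of these data known. The CTCTCTC word, the search of the whole peak and the allowance of 2 mismatches were chosen after seeing the data. The rule for named genes took every conservative site of the 7 members, the strongest ranked peaks and nearest site of members without one, genes at those sites, the 3 sites ranked above and 3 below the strongest member site, and genes of other lists with a site from 2 kb upstream to the end. The daf-4 peak with a score of 823 was named after its value was seen. Alternatives were the second list, an IDR of at most 0.001, each replicate's own list, other windows and other gene assignments. Python 3.11.15, numpy 2.4.6, pandas 2.3.3 and matplotlib 3.10.9 were used.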

Additional observations from a re-analysis of the deposited data

How the results depend on the processing

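With an IDR of at most 0.001, the member sites fell from 15 to 9 and the members with a site within 10 kb from 5 to 4, daf-4 being lost. With each replicate's own list in place of the joint one, there were 9 to 10 sites at 4 to 5 members, and 2 members with a site from 2 kb upstream to the end in either. Within 2 kb of the gene in place of 10 kb, there were 7 sites at 3 members, and within 5 kb 11 sites at 5 members. Counting any base of a peak raised the members with a site from 2 kb upstream to the end from 2 to 3, by sma-6, whose first site overlaps its end. Apart from the 10 kb counts in each replicate's list, shares of all protein-coding genes are not given under these settings. The counts therefore describe the members alone. With at most 2 mismatches to the core in place of 1, the member sites with a match rose from 0 to 4. With at most 1 mismatch but anywhere in the peak, they stayed at 0, against 124 of all 2703 peaks (4.59%). No paired analysis was possible because there is 1 group. Depth is unknown, so weak peaks at dbl-1 and sma-3 do not show a lack of binding. Distance does not assign a site to a gene, and 8 of the 15 sites lie nearer to the start of another gene.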

Other observations

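Genes of the other TGF-β branch of the worm, which controls entry into the dauer larva, were counted in the same way. Of 6 genes of this branch, 4 had a conservative site within 10 kb, against 37.7% of all protein-coding genes, and 2 had one from 2 kb upstream to the end, against 11.2%. No test was made on so few genes. The Smad gene daf-14 had a site 1892 bp inside its start, in an intron, with a signal of 217.2, and 115.2 in replicate 1 against 97.2 in replicate 2. The gene daf-5, which encodes a Sno/Ski-related protein, had 7 sites within 10 kb and 5 from 2 kb upstream to its end. The strongest of the 5 lay in an intron with a signal of 258.2, above the strongest Sma/Mab site. Its signal was 155.3 in replicate 1 against 91.6 in replicate 2. The daf-14 site and this daf-5 site were in both replicates' own lists. At 19089 bp daf-5 is longer than sma-9 (13692 bp), and a longer window has more chances to include a site. Of the 5 daf-5 sites, that at 14044565, with a signal of 10.5, had the same replicate signals as its neighbour at 14044363.

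Of 3 genes for other TGF-β-like ligands, 2 had a site from 2 kb upstream to the end, against 11.2% of all protein-coding genes. The tig-2 site lay 113 bp upstream with a signal of 72.8, and the stronger tig-3 site lay 36 bp upstream with 91.1. Neither was in a replicate's own list, with replicate signals of 40.3 and 35.0 at tig-2 and of 41.4 and 42.8 at tig-3. Over all 4 further lists, 13 of 28 genes had a site within 10 kb, against 37.7% of all protein-coding genes, and 6 of 28 from 2 kb upstream to the end, against 11.2%. Counts this small do not set the lists apart from other genes.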
